A study of Mus musculus with 18 samples.

Results

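Metallothioneins are small cysteine-rich proteins that hold zinc and copper in the cell, and zinc transporters move zinc across membranes. Here 7 genes of this system were followed in mouse liver: the metallothioneins Mt1 and Mt2, their zinc-sensing transcription factor Mtf1, the importers Slc39a14 and Slc39a4, and the exporters Slc30a1 and Slc30a10. They were taken by symbol, through the Ensembl identifiers of the expression table, from 47729 genes in all, of which 27259 had at least 1 read in some library. Each of the 7 was found, and 7 of 7 had a mean normalized count of at least 10 over the 18 libraries, the limit above which 12686 genes were tested.

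Bulk RNA had been sequenced from livers of wild-type (Wt), Il22-/- and Il22bp-/- mice. The cytokine IL-22 signals to hepatocytes and epithelia, and IL-22BP binds and blocks it in solution. Each genotype was studied after ischemia-reperfusion (IR), in which blood flow to the liver is stopped and then restored, and after sham surgery, with 3 samples in each of the 6 groups by the labels. The sources used here give no strain, age, sex, times of ischemia and reperfusion, or cells in which each gene was lost.

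The 18 columns of the table are headed IR1 to IR9 and W1 to W9, and no heading gives a genotype. W was read as sham surgery by elimination: the IR headings are as many as the IR samples, and wild-type samples number 6, which is fewer than the 9 W headings. Every comparison below therefore sets 9 IR libraries against 9 sham libraries with the 3 genotypes mixed in each, and neither knockout was checked in its targeted gene. Genotype differences stay inside the spread of each set, and were not tested. No label says that the samples came from separate animals, so p-values measure the spread between these libraries.

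Read totals recovered from the table ran from 10176617 to 12558179 in the 9 IR libraries and from 10716890 to 12202421 in 8 sham libraries. The remaining sham library, W1, gave 12763837, and was left out of the count tests because its step of 0.991 per read lies close to 1. Albumin transcripts (Alb) took 2.86 to 7.48% of all normalized counts in IR and 12.9 to 15.9% in sham. Of 10 hepatocyte markers, 9 were found, of which 7 were lower and 2 higher in IR (Fga and Hnf4a), and their summed level was 823319 to 1321875 in IR against 2034420 to 2474523 in sham. The 10 neutrophil markers had a summed level of 31843 to 62960 against 242 to 386, most of it Lcn2, which hepatocytes can also make. All 9 of them tested were called higher, but Cxcr2, Retnlg, Mmp8, Mmp9 and Trem1 passed the count limit only through IR. Of 8 Kupffer cell markers 7 were lower and 1 (Marco) was higher, with a summed level of 2457 to 4389 against 6450 to 8796. Of 8 sinusoidal endothelial markers 5 were lower and 2 (Stab1 and Lyve1) higher, with a summed level of 2308 to 3263 against 3825 to 5490.2. Of 6 cholangiocyte markers 5 were tested and 4 were higher, and the sum of 849.98 to 14613 against 373 to 745 was mostly Spp1, with means of 4289 and 408. Summed lymphocyte markers were 14.3 to 43.9 against 109 to 180.4. The part of these shifts in the values below was not tested, and in bulk RNA fewer cells of a type and less RNA per cell cannot be told apart. Among all genes tested, 38.3% were called higher and 37.7% lower, so marker calls in either direction are common.

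Zinc that enters a hepatocyte through the ZIP importers (the SLC39 family) is bound by metallothioneins or passed out of the cytosol by the ZnT exporters (the SLC30 family). When free zinc rises, MTF1 binds short DNA motifs called metal response elements and switches on metallothionein genes and Slc30a1. In the liver, metallothionein and Slc39a14 transcription is also known to respond to interleukin-6 and, for metallothioneins, to glucocorticoids, and the 2 metallothioneins are classical acute phase genes. SLC39A14 carries manganese and iron as well as zinc, and SLC30A10 is known mainly as a manganese exporter.

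Promoters are shown because the metal response element is the known link from zinc to metallothionein transcription. RefSeq promoter windows of GRCm38.p6, 250 bases before to 50 bases after each gene's start, were held for 5 of the 7 genes. The core of the metal response element was searched on both strands as TGCACNC or TGCGCNC, and matches are in capitals in the 250 bases before the start, 5′ to 3′ on the plus strand.
Mt1, chr8:94178839-94179088: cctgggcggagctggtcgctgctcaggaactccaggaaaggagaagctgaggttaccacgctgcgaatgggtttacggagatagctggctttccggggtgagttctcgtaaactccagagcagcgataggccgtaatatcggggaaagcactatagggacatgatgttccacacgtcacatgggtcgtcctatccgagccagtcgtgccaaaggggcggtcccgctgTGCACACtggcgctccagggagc
Mt2, chr8:94172368-94172617: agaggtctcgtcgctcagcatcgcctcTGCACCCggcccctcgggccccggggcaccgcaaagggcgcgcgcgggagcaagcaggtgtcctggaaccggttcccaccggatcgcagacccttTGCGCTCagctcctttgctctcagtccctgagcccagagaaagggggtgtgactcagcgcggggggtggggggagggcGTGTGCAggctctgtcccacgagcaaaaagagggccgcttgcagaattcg
Slc30a10, chr1:185454598-185454847: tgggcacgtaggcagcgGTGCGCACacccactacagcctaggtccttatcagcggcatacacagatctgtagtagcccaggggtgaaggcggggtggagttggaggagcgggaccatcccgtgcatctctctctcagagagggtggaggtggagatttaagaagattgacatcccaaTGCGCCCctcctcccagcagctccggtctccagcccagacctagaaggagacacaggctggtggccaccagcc
Slc30a1, chr1:191906531-191906780: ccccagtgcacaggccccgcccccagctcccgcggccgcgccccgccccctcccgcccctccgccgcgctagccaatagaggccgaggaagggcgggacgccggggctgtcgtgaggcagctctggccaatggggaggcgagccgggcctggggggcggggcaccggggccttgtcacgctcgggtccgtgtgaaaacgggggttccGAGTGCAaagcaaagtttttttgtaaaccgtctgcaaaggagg

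In the whole window, with the 50 bases after the start, Mt2 held 4 matches, Mt1 and Slc30a10 held 3 each, Slc30a1 held 2 and Mtf1 held 0. The pair of matches after the Mt1 start reads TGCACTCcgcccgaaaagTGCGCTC, and 2 of the 3 in Slc30a10 overlap, as GTGCGCAC. Of 32851 windows of the same length, 25.7% held at least 1 match, 7.11% at least 2 and 1.97% at least 3. A STAT motif, TTCNNNGAA, was in 0 of these 5 windows and in 8.30% of all windows. A match is only a match of letters, and says nothing of binding. The RefSeq start of Mt1 (94179089) and that of Mt2 (94172618) differ from the first GENCODE transcript starts (94179082 and 94172664). Further protein-coding transcripts start at 94179211 and 94179241 for Mt1 and at 94172860 for Mt2. No window was placed on those starts, and which start was used in these livers was not tested. The pair of matches printed for Mt1 lies after its RefSeq start but before both of its further starts.

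**Figure D1:**
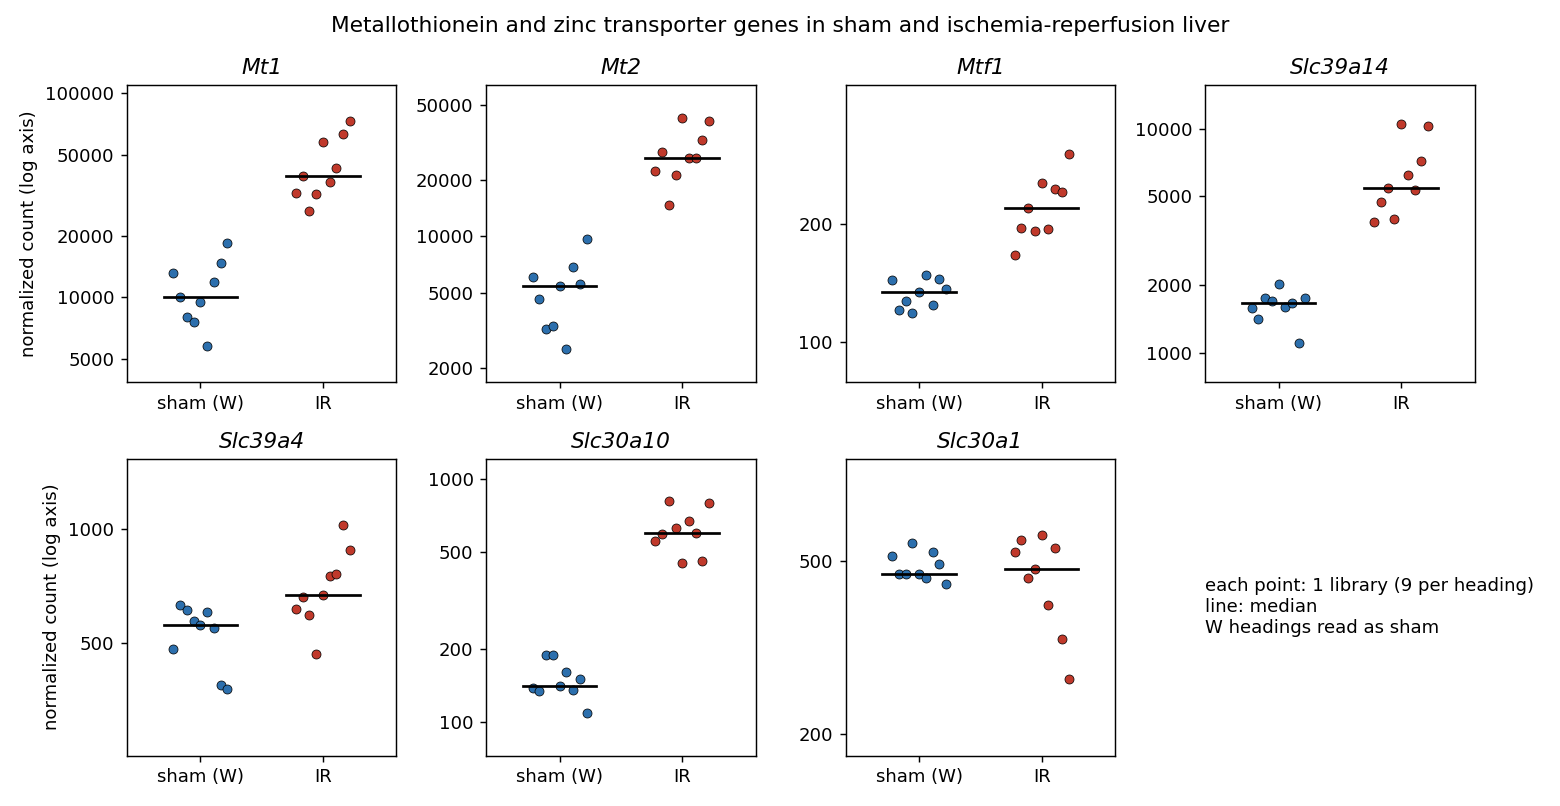
Normalized counts (log axis) of the 7 genes in each library, in 9 sham (W) and 9 IR libraries, with a line at each median. For Mt1, Mt2, Mtf1, Slc39a14 and Slc30a10 all 9 IR points lie above all 9 sham points, while for Slc39a4 and Slc30a1 the sets overlap.

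Of the 7 genes, 6 were higher in IR, 0 were lower and Slc30a1 did not pass the test, with a median difference of 1.90 on the log2(normalized count + 1) scale. Over all 12686 genes tested, 38.3% were called higher, 37.7% lower and 76.0% either way (adjusted p under 0.05, limma), and the median difference was 0.02. A called change is thus common in this comparison, and the sizes say more than the calls. The 2 sets of libraries did not overlap for 5 of the 7 genes, against 40.2% of all genes tested in either direction and 19.9% with IR above sham. When libraries were rescaled to equal totals, an alternative chosen after seeing the data, the median of all genes moved up by 0.24 to 0.26, and the calls split 62.0% higher in place of 50.4%. With that rescaling the 6 called genes had differences from 0.66 (Slc39a4) to 2.71 (Mt2), and each was still called higher.

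Mt1 and Mt2 encode the main metallothioneins of the liver and lie side by side on chromosome 8. Mt1 (ENSMUSG00000031765, chr8:94179082-94180327, plus strand, GRCm38) had normalized counts of 26429, 39540.4 and 73183 (lowest, median, highest) in IR and of 5789, 10089.9 and 18381 in sham. The lowest IR library (IR3) stood above the highest sham library (W9). Mt1 rose 4.09-fold, a difference of 2.03 on the log2 scale (SE 0.22, 95% interval 1.56 to 2.50, limma adjusted p = 7.05e-08), from a mean of 11024 ± 3947 to 44905 ± 16043 (SD, n = 9 in each). 

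Mt2 (ENSMUSG00000031762, chr8:94172664-94173568, plus strand) had normalized counts of 14720.0, 26321 and 42796 in IR and of 2515, 5468 and 9683 in sham. IR3 was again the lowest IR library, W6 the lowest and W9 the highest sham library, and the sets did not overlap. Mt2 rose 5.56-fold, by 2.48 on the log2 scale (SE 0.24, 95% interval 1.98 to 2.97, limma adjusted p = 1.04e-08), from 5264 ± 2207 to 28411 ± 9212 (SD, n = 9 in each). Reads of Mt1 and Mt2 together made up 0.356 to 1.26% of all normalized counts in IR, with a median of 0.642%, and 0.0725 to 0.224% in sham, with a median of 0.121%. Mt1 transcripts shared 0% of their 50-base stretches with any other annotated gene. Mt2 shared 45.8% with Gm45774, an antisense gene annotated over 749 bases of the gene and not among the 47729 genes of the data. Whether the counting used strand is not given in the sources used here, so the reads of the 2 cannot be told apart.

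Mt2 gained more than Mt1 in counted reads. Reads of the antisense gene Gm45774 cannot be told apart from those of Mt2, and their part in the ratio was not tested. The Mt1 to Mt2 ratio of normalized counts was 1.35, 1.51 and 1.92 (lowest, median, highest) in IR and 1.74, 2.18 and 2.63 in sham. All 9 IR libraries were below the sham median and 6 were below the lowest sham library, so the sets overlapped in part. The mean log2 ratio was 0.65 ± 0.18 in IR and 1.10 ± 0.22 in sham (SD, n = 9 in each), a difference of -0.44 (two-sided exact permutation test over 48620 splits, p = 6.99e-04, adjusted over 2 ratios 0.00140). Per kilobase of merged exons, Mt2 had a median of 9300 and Mt1 of 8098 normalized counts in sham, with overlapping ranges and Mt2 above Mt1 in 3 of 9 libraries. In IR the medians were 44764 and 31734, the ranges still overlapped, and Mt2 was above Mt1 in 9 of 9 libraries. These values depend on the lengths used, 1246 bases for Mt1 and 588 for Mt2. The annotated exons of Mt1 together cover its whole gene span. Before division by length, Mt1 exceeded Mt2 in every library.

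Mt3 and Mt4 complete the mouse cluster, which spans 43.1 kb from the start of Mt4 to the end of Mt1. Mt3 is best known as the metallothionein of brain, and Mt4 as that of stratified squamous epithelium. Mt3 (ENSMUSG00000031760, chr8:94152607-94154146, plus strand) lies 18517 bases before Mt2. Its normalized counts in IR were 5.88, 52.1 and 151, highest in IR8 and lowest in IR3. In sham 5 libraries were at 0 and 4 libraries held 1 read each, so that every IR library was above every sham library. Mt3 passed the count limit only through IR, and its difference of 5.03 on the log2 scale (SE 0.47, limma adjusted p = 6.94e-09) depended on the added constant, being 5.74 with 0.5 and 3.24 with 5 in place of 1. The mean rose from 0.492 ± 0.584 to 63.0 ± 50.2 (SD, n = 9 in each).

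Mt3 remained a trace beside Mt1 and Mt2, at 1.43 to 19.2 per 10000 of their summed normalized counts in IR (median 6.46) and at most 0.924 in sham. The highest Mt1 library, IR9, had an Mt3 count of only 33.5. Mt4 (ENSMUSG00000031757, chr8:94137197-94139031, plus strand) was below the count limit, with a mean of 11.4 and a highest value of 29.6 in IR7. It was above 0 in 8 of 9 IR libraries and in 0 of 9 sham libraries. Set against a floor of 3 reads over the whole sham group, which is a mean of 0.356, Mt4 was at least 32.0-fold higher in IR. Neither gene shared any 50-base stretch with another annotated gene (0% for both).

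**Figure D2:**
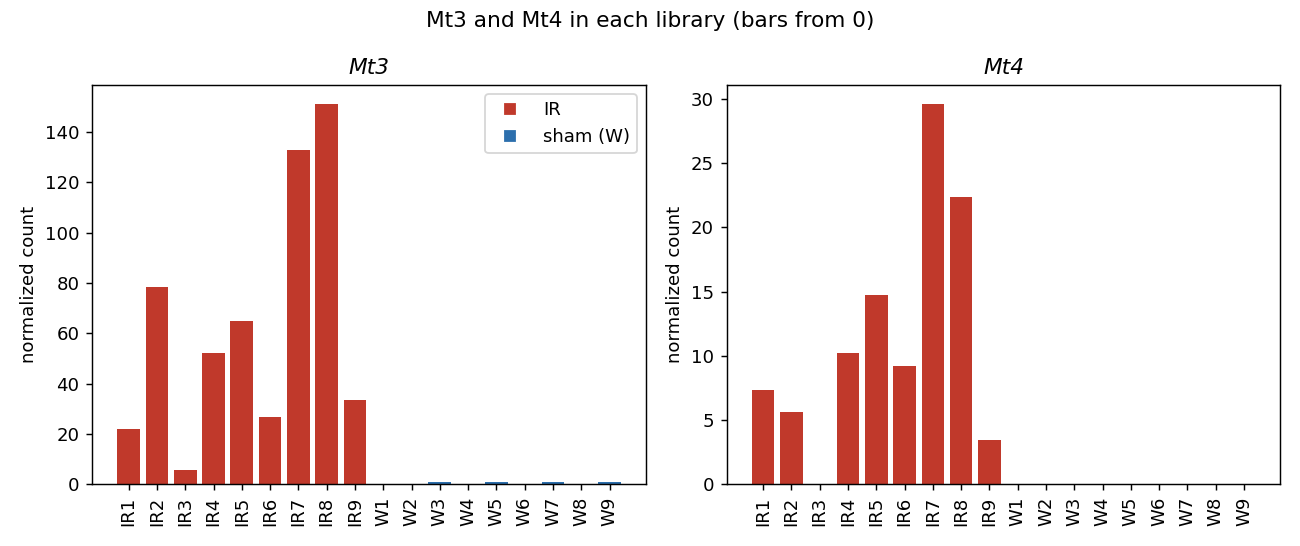
Normalized counts of Mt3 and Mt4 in each of the 9 IR and 9 sham (W) libraries, with bars from 0. Mt3 reaches 151 in IR8 and stays at or below 1.15 in sham, and Mt4 reaches 29.6 in IR7 and is 0 in every sham library.

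Mtf1 encodes the zinc sensor that drives metallothionein transcription. Mtf1 (ENSMUSG00000028890, chr4:124802104-124849800, plus strand) had normalized counts of 166, 219 and 302 in IR and of 119, 134 and 148 in sham. The sets did not overlap, with IR1 lowest and IR9 highest among the IR libraries. Mtf1 rose 1.65-fold, by 0.73 on the log2 scale (SE 0.10, 95% interval 0.52 to 0.94, limma adjusted p = 1.55e-06), from 133 ± 11.0 to 224 ± 41.6 (SD, n = 9 in each). The end of Mtf1 overlaps the opposite-strand gene 1110065P20Rik by 721 bases, and that gene's mean was 299 in IR and 246 in sham.

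Other known MTF1 targets were listed to set beside these. Of 4, 3 were tested, of which 2 were higher and 1 was lower in IR, with a median of 1.78, beside 38.3% higher and 37.7% lower over all genes. Gclc, which makes the first step of glutathione synthesis, rose by 1.78 on the log2 scale (SE 0.29, limma adjusted p = 1.65e-05), from a mean of 1536 to 6218, with 8 of 9 IR libraries above the highest sham library and IR3 within the sham range. Ndrg1, a stress-induced gene also driven by hypoxia, rose by 1.81 (SE 0.27, limma adjusted p = 4.71e-06) with no overlap. Selenow, a small selenoprotein, fell by 0.70 (SE 0.14, limma adjusted p = 1.12e-04). Pgf, a vascular growth factor, was below the count limit, with means of 8.56 in IR and 0.343 in sham.

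Slc39a14 encodes ZIP14, an importer of zinc, manganese and iron at the hepatocyte surface. Slc39a14 (ENSMUSG00000022094, chr14:70303469-70351425, minus strand) had normalized counts of 3856, 5456 and 10512 in IR and of 1108, 1674 and 2020.1 in sham. IR5 and IR9 stood above 10000 and the other 7 IR libraries lay between 3856 and 7168, all above the highest sham library. Slc39a14 rose 3.74-fold, by 1.90 on the log2 scale (SE 0.18, 95% interval 1.53 to 2.28, limma adjusted p = 8.25e-09), from 1625 ± 253 to 6404 ± 2508 (SD, n = 9 in each).

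Slc39a4 encodes ZIP4, the importer through which the gut takes up dietary zinc. Slc39a4 (ENSMUSG00000063354, chr15:76612383-76617384, minus strand) had normalized counts of 468, 670.2 and 1023 in IR and of 377, 556 and 631 in sham. The sets overlapped: 6 of 9 IR libraries were above the highest sham library, and W8 and W9 were the lowest of all 18. The rise was 1.34-fold, or 0.42 on the log2 scale (SE 0.14, 95% interval 0.14 to 0.70, limma adjusted p = 0.00867), from 529 ± 93.8 to 713 ± 164 (SD, n = 9 in each). Of 6 intestinal markers 2 were tested: Fabp2 was lower in IR (means of 546 and 2343 in IR and sham) and Lgals4 was higher (244 and 129). Below the count limit were Vil1 (means of 1.80 and 2.05), Muc2 (1.75 and 0.128) and Cdx2 (0.201 and 0), while Cdx1 was at 0 in every library. The part of such cells in the Slc39a4 values was not tested.

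Slc30a10 encodes an exporter at the canalicular membrane of hepatocytes. Slc30a10 (ENSMUSG00000026614, chr1:185454848-185468762, plus strand) had normalized counts of 452, 600.5 and 811 in IR and of 109, 141 and 189.5 in sham. The lowest IR library, IR5, was well above the highest sham library, W3, so the sets did not overlap. Slc30a10 rose 4.10-fold, by 2.04 on the log2 scale (SE 0.12, 95% interval 1.77 to 2.30, limma adjusted p = 1.55e-11), from 149.7 ± 26.3 to 620.1 ± 127 (SD, n = 9 in each). The opposite-strand lincRNA Gm2061 overlaps its start by 721 bases and had means of 19.2 in IR and 3.65 in sham.

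Slc30a1 encodes ZnT1, the plasma membrane exporter that lowers cytosolic zinc and a known MTF1 target. Slc30a1 (ENSMUSG00000037434, chr1:191906767-191913247, plus strand) had normalized counts of 268, 480.1 and 573 in IR and of 444, 468 and 550.7 in sham. IR libraries fell on both sides of the sham range, with 2 above it and 3 below it (IR6, IR8 and IR9). The difference was -0.12 on the log2 scale (SE 0.12, 95% interval -0.38 to 0.13, limma adjusted p = 0.368), and it was 0.11 when libraries were rescaled to equal totals. What differed in appearance was the spread, with an SD of 0.37 in IR and 0.10 in sham on the log2 scale, a difference that was not tested. The SD was also wider in IR for Mtf1 (0.26 and 0.12), Slc39a14 (0.53 and 0.24), Slc30a10 (0.30 and 0.25) and Slc39a4 (0.33 and 0.28). For Mt1 (0.50 and 0.52) and Mt2 (0.48 and 0.61) it was not. The opposite-strand gene 1700034H15Rik overlaps Slc30a1 by 761 bases, with means of 4.27 and 2.03.

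SLC39A14 brings manganese into the cell and SLC30A10 exports it, so their ratio was followed within each library. The Slc39a14 to Slc30a10 ratio was 6.32, 8.92 and 23.3 (lowest, median, highest) in IR and 7.37, 10.5 and 16.1 in sham. The IR libraries spanned the whole sham range, with 3 below it and IR5 above it. The difference in mean log2 ratio was -0.13 (two-sided exact permutation test, p = 0.596), which does not show that the ratios are alike.

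**Figure D3:**
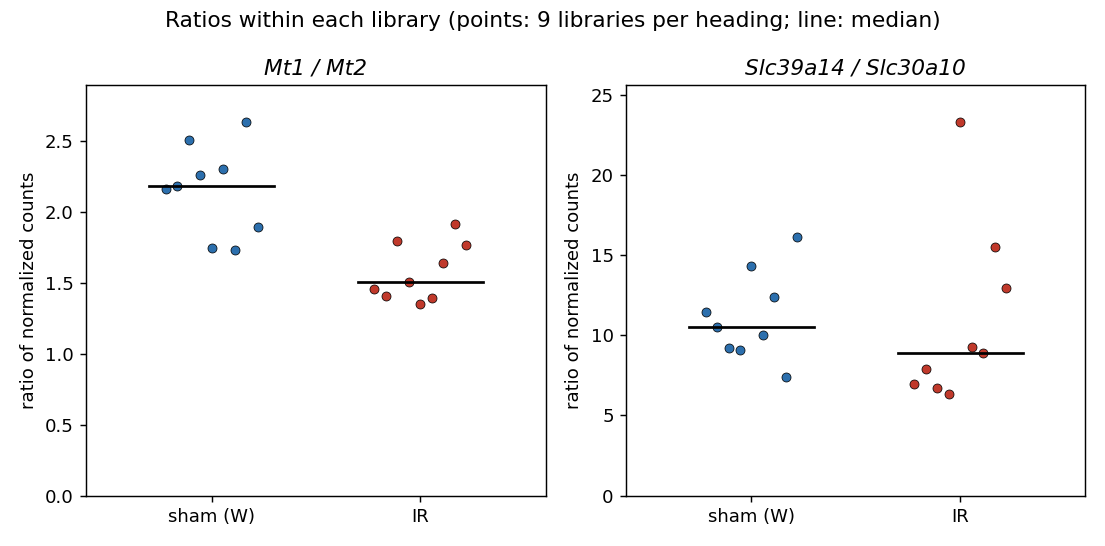
Ratio of normalized counts within each library, for Mt1 over Mt2 and for Slc39a14 over Slc30a10, in 9 sham (W) and 9 IR libraries with lines at the medians. The Mt1 to Mt2 median is 2.18 in sham and 1.51 in IR, and the Slc39a14 to Slc30a10 ratios of the 2 sets lie over each other.

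Levels can be set side by side per kilobase of merged exons. Any such order depends on the merged lengths, as given above for Mt1 and Mt2. In sham the order of medians was Mt2, Mt1, Slc39a4 (179), Slc39a14 (159), Slc30a1 (89.3), Slc30a10 (24.1) and Mtf1 (15.0 normalized counts per kilobase). Slc39a4 and Slc39a14 overlapped there, with Slc39a4 above in 7 of 9 libraries. Their merged lengths were 3106 and 10550 bases. Before division by length, Slc39a14 was the higher in sham, at 1108 to 2020.1 normalized counts against 377 to 631. In IR the order was Mt2, Mt1, Slc39a14 (517), Slc39a4 (216), Slc30a10 (103), Slc30a1 (91.6) and Mtf1 (24.6). Slc39a14 and Slc39a4 no longer overlapped, and Slc30a10 had moved above Slc30a1 with overlapping ranges, in 6 of 9 libraries.

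The rest of the 2 transporter families was read from lists of all other members. Of 12 other ZIP genes, 11 were tested, of which 9 were higher, 2 lower and 0 uncalled in IR, with a median difference of 1.04 on the log2 scale. Of 8 other ZnT genes, 6 were tested, of which 2 were higher, 2 lower and 2 uncalled, with a median of 0.16. Slc30a2, Slc30a8 and Slc39a12 were below the count limit. These counts stand beside 38.3% of all genes called higher, and no test set one family against the other.

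Among the ZIP importers, Slc39a6, a plasma membrane importer, rose by 1.89 on the log2 scale (SE 0.21, limma adjusted p = 7.38e-08), from a mean of 28.6 to 112, with no overlap. Slc39a7, which releases zinc from the endoplasmic reticulum and Golgi, rose by 1.73 (SE 0.10, limma adjusted p = 6.20e-12), from 63.5 ± 7.79 to 214 ± 33.6 (SD, n = 9 in each). Slc39a2 had means of 8.46 in sham and 29.2 in IR, a difference of 1.66 (limma adjusted p = 3.40e-05), and passed the count limit only through IR. Slc39a10, a close relative of Slc39a6, rose by 1.21 (SE 0.34, limma adjusted p = 0.00300), and its IR libraries ran from 21.5 in IR4 to 238 in IR9 while sham stayed between 20.8 and 36.7.

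The other called ZIP genes were chosen for naming after their values were seen. Slc39a13 rose by 1.18 and Slc39a1 by 1.04, both with no overlap between the sets. Slc39a3 rose by 0.58, Slc39a11 by 0.36 and Slc39a9 by 0.33, with overlapping sets. The call of Slc39a11 (limma adjusted p = 0.0350) was lost on leaving out IR1, IR2, IR3, IR4, IR6, W4, W7, W8 or W9, with adjusted p from 0.0501 to 0.0710. Slc39a8, which encodes ZIP8, the closest relative of ZIP14, moved the other way: it fell by 0.97 (SE 0.12, limma adjusted p = 5.92e-07), from 396 ± 48.5 to 206 ± 48.3 (SD, n = 9 in each), with no overlap. Slc39a5 fell by 0.55 at a low level (means 28.4 and 19.6), and its adjusted p rose from 0.0114 to 0.149 when libraries were rescaled to equal totals.

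Among the ZnT exporters, Slc30a9, which serves the mitochondrion, had normalized counts of 430.4 to 494 in IR and 755 to 890.0 in sham, with an SD of 0.07 on the log2 scale in each set. It fell by 0.81 on the log2 scale (SE 0.06, limma adjusted p = 6.82e-11). Slc30a6 fell by 0.63 (SE 0.10, limma adjusted p = 5.17e-06), and Slc30a5, whose protein works in a complex with that of Slc30a6 in the early secretory pathway, rose by 0.61 (SE 0.10, limma adjusted p = 1.16e-05). Slc30a7, a Golgi transporter, rose by 0.39 (SE 0.13, limma adjusted p = 0.0121). Slc30a3 and Slc30a4, named after their values were seen, had differences of 0.63 and -0.07 with limma adjusted p of 0.0669 and 0.729. Slc30a3 passed the threshold on leaving out IR9, W2 or W6 (limma adjusted p = 0.0373, 0.0115 and 0.0478) and with libraries rescaled to equal totals (0.0137). It also passed with a replicate block by header number (0.0463), although the header numbers do not pair the libraries. Slc30a4 turned positive with other settings.

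**Figure D4:**
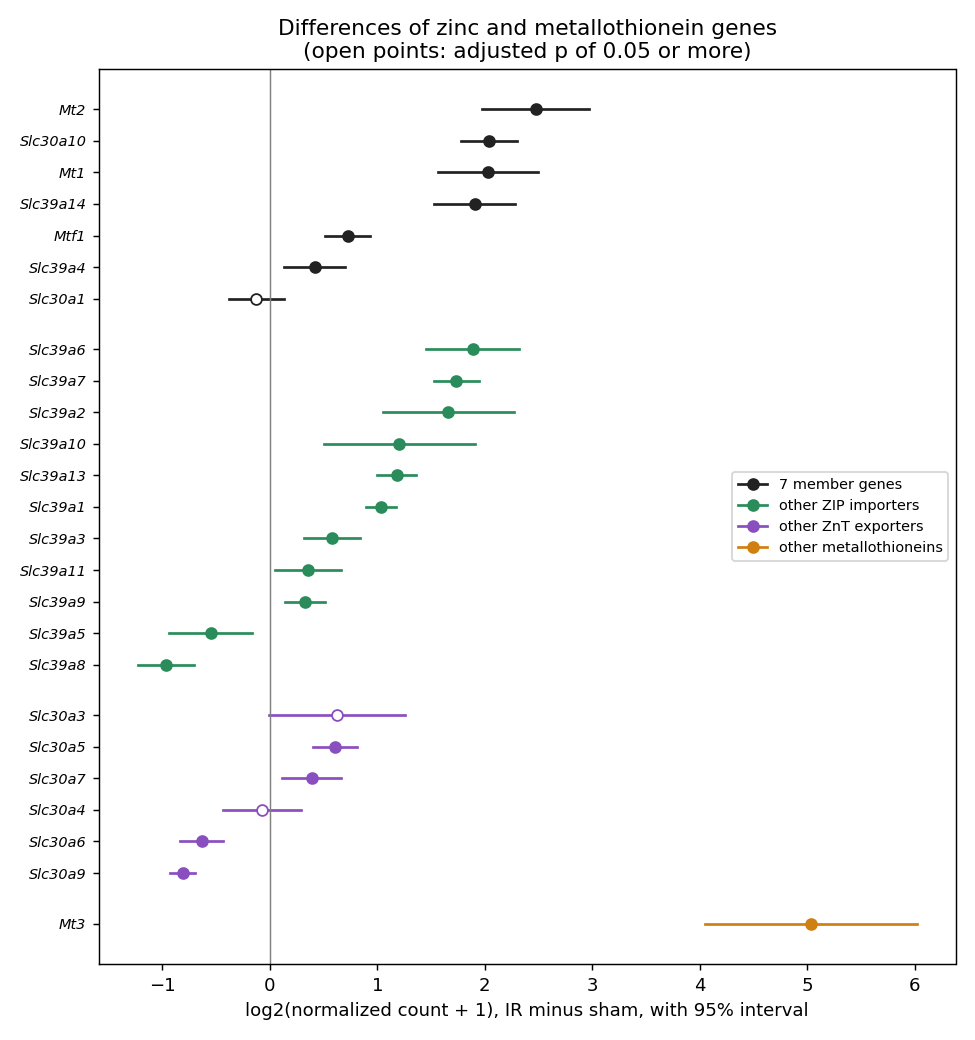
Difference in log2(normalized count + 1), IR minus sham, with its 95% interval, for the 7 genes described, the tested ZIP and ZnT genes and Mt3. Filled points have an adjusted p under 0.05. Most ZIP genes lie to the right of 0, Slc39a8 and Slc39a5 to the left, and the ZnT genes lie on both sides.

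Signals known to act on metallothionein and Slc39a14 transcription were listed as well. Of 8 genes of interleukin-6 and STAT3 signalling, 7 were tested, of which 4 were higher, 0 lower and 3 uncalled, with a median of 0.68. Over all genes tested, 38.3% were called higher and 76.0% either way. Socs3, the feedback inhibitor of the pathway, rose by 4.19 on the log2 scale (SE 0.25, limma adjusted p = 1.23e-11). Stat3 itself rose by 1.82, the co-receptor Il6st by 0.86 and the STAT3 inhibitor Pias3 by 0.68, each with an adjusted p of 3.04e-05 or lower. Il6 was below the count limit, with means of 13.2 in IR and 1.78 in sham.

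Of 8 genes for the glucocorticoid receptor and its targets, 2 were higher, 2 lower and 4 uncalled, with a median of 0.16. The share called either way over all genes tested was 76.0%. The receptor gene Nr3c1 fell by 1.39 (SE 0.08, limma adjusted p = 8.81e-12), from 1094 ± 149.8 to 415 ± 24.5 (SD, n = 9 in each), with no overlap. Tsc22d3, a classical glucocorticoid target, fell by 1.14 (SE 0.19, limma adjusted p = 1.35e-05). The phosphatase gene Dusp1 rose by 1.27 with a wide range in IR, from 161 in IR3 to 4058 in IR8 (limma adjusted p = 0.0192), and the clock gene Per1 rose by 0.81 (limma adjusted p = 0.00530).

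Libraries differed among themselves in a shared way for the 2 metallothioneins. Pearson r and Spearman rho of log2 values were computed for all 21 pairs of the 7 genes in IR and in sham, 42 correlations adjusted together. In IR 2 pairs passed 0.05 for r, and in sham 3 pairs did. Mt1 and Mt2 had r = 0.93 and rho = 0.90 in IR (exact permutation p = 3.03e-04 and 0.00203, adjusted 0.00747 and 0.0426, n = 9). In sham they had r = 0.94 and rho = 0.90 (exact permutation p = 3.55e-04 and 0.00203, adjusted 0.00747 and 0.0426, n = 9). Without the 2 libraries farthest from the Mt1 median, r was 0.97 in IR and 0.84 in sham.

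Mtf1 and Slc39a14 had r = 0.85 and rho = 0.82 in IR (exact permutation p = 0.00310 and 0.0108, adjusted 0.0319 and 0.0905, n = 9). Without IR1 and IR9, r was 0.71 (exact permutation p = 0.0633), which is no longer under 0.05 with 7 libraries left. Mt1 and Slc39a4 went against each other in sham, with r = -0.84 and rho = -0.78 (exact permutation p = 0.00287 and 0.0172, adjusted 0.0319 and 0.112, n = 9), and r = -0.79 without W6 and W9. In IR the same pair had r = 0.76 and rho = 0.88 (exact permutation p = 0.0152 and 0.00308, adjusted 0.0711 and 0.0431, n = 9), and r = 0.50 without IR8 and IR9. The 2 signs are opposite, and their difference was not tested.

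Mt2 and Slc30a10 had r = -0.85 and rho = -0.77 in sham (exact permutation p = 0.00380 and 0.0214, adjusted 0.0319 and 0.112, n = 9), and r = -0.89 without W6 and W9. In IR r was -0.44 (exact permutation p = 0.240, adjusted 0.458, n = 9). W9 was thus the sham library with the most Mt1 and Mt2 and the least Slc30a10 and Slc39a4. The genotypes mixed in each set are shared by all these pairs, and their part was not tested.

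**Figure D5:**
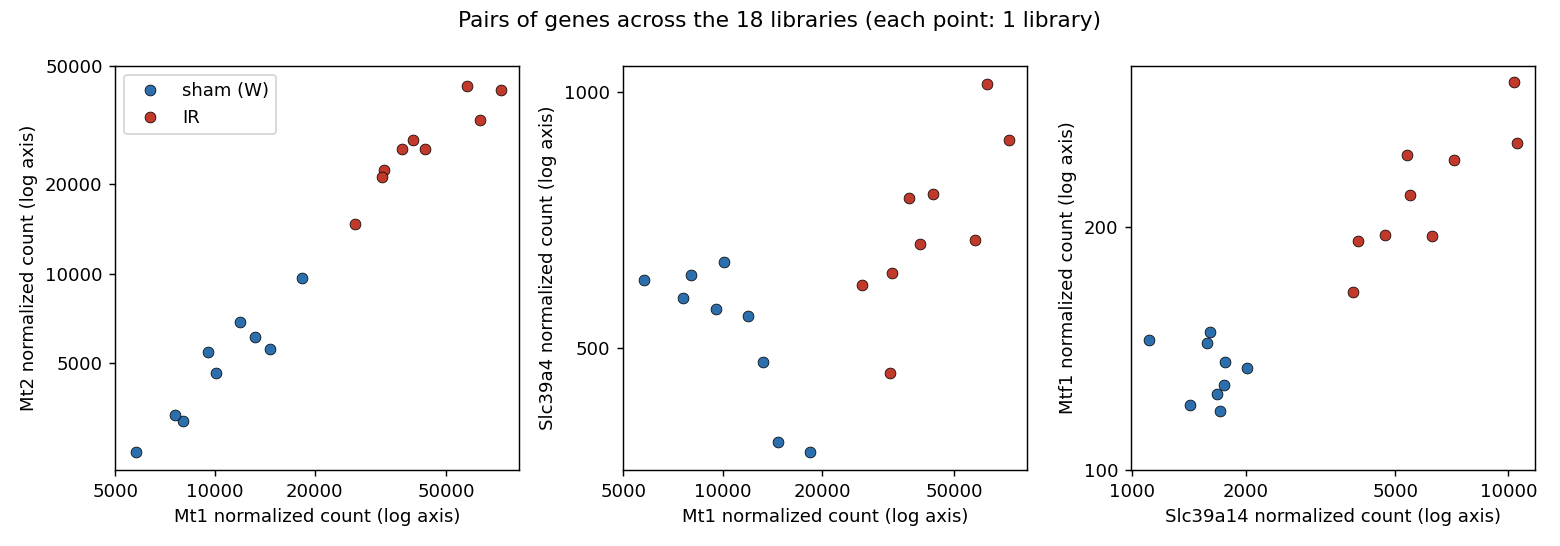
Normalized counts (log axes) of gene pairs, with 1 point for each of 9 sham (W) and 9 IR libraries. Mt2 follows Mt1 within both sets. Slc39a4 goes down with Mt1 in sham (r = -0.84), and Mtf1 goes up with Slc39a14 in IR (r = 0.85). In IR, Slc39a4 and Mt1 have r = 0.76, which did not pass the threshold (exact permutation, adjusted p = 0.0711). The difference between the 2 sets was not tested.

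The genes most like Mt1, Slc39a14, Slc30a10 and Slc39a4 across libraries were found among 9838 genes with a mean normalized count of at least 50, by Pearson r of log2 deviations from the mean of the own set over 18 libraries. The values are a description of libraries that share depth and genotype mix. For Mt1 they were Gas7 (r = 0.89), Snhg6 (0.86), Eif3m (0.84), Ube2g1 (0.81) and Nt5c3 (0.81), all below the r of 0.93 that Mt2 had by the same measure. Between sham and IR, Gas7 rose by 0.95 on the log2 scale and the other 4 fell, by 0.66 to 1.39, while Mt1 rose.

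For Slc39a14 they were Heatr1 (r = 0.91), Ddx3x (0.90), Ugcg (0.90), Ggta1 (0.90) and Sos2 (0.89). For Slc30a10 they were Arid1a (0.84), Mesd (0.78), Emsy (0.75), Sptlc1 (0.75) and Tbc1d24 (0.74), and for Slc39a4 they were Rbfox2 (0.88), Slc35c1 (0.85), Rnf24 (0.85), Cstf2 (0.84) and Dusp16 (0.83). Between the surgeries these genes did not move as one. Beside Slc39a14, Heatr1 rose by 0.90 on the log2 scale and Ddx3x fell by 0.97, while Ugcg, Ggta1 and Sos2 were not called (-0.11, -0.17 and -0.07). Beside Slc30a10, Arid1a, Emsy and Mesd rose by 1.14, 0.55 and 0.33, Sptlc1 fell by 0.27 and Tbc1d24 was not called (0.18). Beside Slc39a4, Slc35c1, Dusp16 and Rbfox2 rose by 2.10, 0.75 and 0.69, and Rnf24 (0.33) and Cstf2 (-0.0047) were not called. Slc39a14 had r of 0.43 with Mt1 and 0.43 with Mt2 by this measure, which pools the 2 sets, and all 3 rose in IR. Within IR alone, Slc39a14 had r = 0.82 with Mt1 and 0.77 with Mt2 (exact permutation p = 0.00899 and 0.0152, adjusted 0.0629 and 0.0711, n = 9). Within sham alone the values were -0.27 and -0.0046 (exact permutation p = 0.494 and 0.991, n = 9).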

How the data were processed

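Liver RNA libraries were trimmed with Trimmomatic 0.33, aligned with STAR 2.5.0a to GRCm38 and normalized with DESeq2 1.14, per the submitters' processing notes. No source used here names the counter, annotation or filters. The deposited table holds a signal per gene, gene counts that the authors divided by size factors, in 18 columns, all used. All nonzero values were whole multiples, within 0.001 steps, of 1 read's worth. Symbols and coordinates come from GENCODE vM21.

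Log2(normalized count + 1) was tested with limma 3.58.1 (R 4.3.3, trended prior variance) on genes with a mean of at least 10, with Benjamini-Hochberg adjustment over 12686 genes and a threshold of 0.05. Fold changes on this scale understate changes of low genes. Alternatives included edgeR 4.0.16 and DESeq2 1.42.0 on reads recovered from 17 libraries, without W1, left out because its step per read lies close to 1, although its values were also whole multiples of that step. The fit was also run on simulated data with few changed genes and the same dispersion in both sets. These data differ from that setting, so the simulation does not vouch for the fit here.

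The genes and lists were chosen with earlier results of these data known. Named beside the 7 genes were the called genes of each list, up to the 4 largest, and the 5 genes most like each of Mt1, Slc39a14, Slc30a10 and Slc39a4. Header numbers are shared by IR and W, but same-numbered libraries did not deviate together.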

Additional observations from a re-analysis of the deposited data

How the results depend on the processing

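The 6 genes called higher kept that call under every alternative run: added constants of 0.5 and 5, no filter and a minimum of 50, other scalings, edgeR, DESeq2, a replicate block and leaving out each library. Without each library in turn, differences were 1.92 to 2.13 for Mt1, 2.36 to 2.60 for Mt2, 0.67 to 0.78 for Mtf1, 1.80 to 1.98 for Slc39a14, 1.98 to 2.09 for Slc30a10, 0.35 to 0.49 for Slc39a4 and -0.17 to -0.03 for Slc30a1. Slc30a1 turned to 0.11 (adjusted p = 0.364) with libraries rescaled to equal totals, which was chosen after seeing the data. Slc30a4 turned to 0.17 with that rescaling, 0.010 in edgeR, 0.026 in DESeq2, 0.020 without IR1 and 0.0037 without IR3, within a range of -0.15 to 0.020 over single libraries left out. Without the 2 libraries farthest from the median, 0 of 3 sham pairs stayed past the threshold, with 7 libraries left. The header numbers do not pair the libraries: same-number correlations ran from -0.10 to 0.12, and 0 of 9 IR libraries matched their own number best. With the replicate block, 4821 genes were higher and 4751 lower, against 4860 and 4781 without it, Slc39a4 had an adjusted p of 0.0317, and Slc30a3 passed the threshold (adjusted p = 0.0463). Without a filter 27259 genes were tested.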

Other observations

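Copper and manganese share carriers and binding proteins with zinc. Of 13 genes listed for their handling, 13 were tested, of which 2 were higher, 6 lower and 5 uncalled in IR, with a median difference of -0.19 on the log2 scale. The shares over all genes tested were 38.3% higher, 37.7% lower and 76.0% either way. Slc11a2, an importer of iron and manganese, rose by 1.74 (SE 0.08, limma adjusted p = 2.82e-13), from a mean of 207 to 697, with no overlap between the sets. Slc40a1, which encodes the iron exporter ferroportin, fell by 2.09 (SE 0.11, limma adjusted p = 1.93e-12), from 2684 to 632, also with no overlap. Sod1, the copper and zinc superoxide dismutase, fell by 0.92 (SE 0.09, limma adjusted p = 1.33e-08), from 12697 to 6724. Atp7a, a copper pump at a low level in liver, fell by 1.17 (SE 0.23, limma adjusted p = 1.30e-04).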
